A study of Drosophila melanogaster with 32 samples.

Results

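Mitochondrial ribosomal protein genes were described in mated females of 8 Drosophila melanogaster populations. They were chosen by name: every probe set on the array that the platform annotation assigns to a single gene whose symbol begins with mRpL or mRpS and a number. The rule gave 69 genes with 71 probe sets (a probe set is a group of short probes that together measure a transcript), of 11982 genes with 13647 single-gene probe sets on the array. There were 44 genes of the large ribosomal subunit, with 45 probe sets, and 25 genes of the small subunit, with 26 probe sets. Another 2 probe sets were shared between a gene of this family and an unrelated gene and were left out. All 71 probe sets carried symbols that are still current in RefSeq.

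The flies came from the laboratory base stock LHM and were split into populations that evolved for 46 generations. In the 4 monogamous populations, Mono1 to Mono4, mating was limited to a single mating per generation, while the 4 promiscuous populations, Prom1 to Prom4, were kept under the standard protocol of the stock. Each population's females were then mated either to males from the same population or to males of the other regime's population with the same number, and frozen 6 h later. Whole-fly RNA was hybridised to 32 single-colour Affymetrix arrays, with 2 arrays for each of the 16 crosses. The 4 groups were monogamous females with monogamous-line males, monogamous females with promiscuous-line males, promiscuous females with monogamous-line males and promiscuous females with promiscuous-line males, each with 8 arrays from 4 female populations. No untreated or virgin females belong to these groups, and all were mated. The labels do not state how many flies were pooled for an array.

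Mitochondrial ribosomes translate the few messenger RNAs that are transcribed from mitochondrial DNA, and these encode core subunits of the oxidative phosphorylation complexes. Their ribosomal RNAs are mitochondrial, but all their proteins are encoded in the nucleus, made in the cytosol and imported. Some of the proteins have bacterial counterparts and others are specific to mitochondria, and ovaries are among the tissues rich in mitochondria.

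Values are log2 levels as deposited, and a difference of 1 on this scale is a doubling. The arrays were alike: medians lay between 5.41 and 5.50 and correlations between arrays between 0.992 and 0.998. The 2 arrays of a cross are biological replicates and the labels place them in batch 2 and batch 1, so batch and replicate array cannot be told apart; each batch held 16 arrays, 4 of every group. Differences are monogamous minus promiscuous, or batch 2 minus batch 1, and n counts populations or crosses, as stated. Tests were made with limma over all 18769 tested probe sets, and a probe set was called at a Benjamini-Hochberg adjusted p under 0.05.

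The genes of the mitochondrial ribosome were well detected and steady. Their mean levels over the 32 arrays lay between 9.11 and 11.34 with a median of 9.89, and none was among the dimmest 40% of probe sets, which ended at 4.54. The SD over the 8 female population means had a median of 0.049 for the 71 probe sets (lowest 0.021, highest 0.19), against 0.069 for all tested probe sets. Between the arrays of a population the residual SD had a median of 0.072, against 0.12 for all tested. Relative to that array noise, the spread between populations had a median ratio of 0.68 for the family and 0.64 for all tested. Without the dimmest 40% of probe sets, the median ratio over the array was 0.75, above that of the family. The 3 steadiest probe sets across populations were for mRpS18A, 1 of the 2 for mRpS11, and mRpL3, with SDs of 0.021, 0.022 and 0.024. The 3 most variable were for mRpS35, mRpS5 and mRpL55, with SDs of 0.19, 0.14 and 0.091.

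A few members differed clearly between individual populations. Between the 8 female populations, 13 of the 71 probe sets were called by limma's F-test with 7 numerator degrees of freedom, 8 of the large and 5 of the small subunit. That share was close to the 20.6% called among all tested probe sets. At an unadjusted p under 0.05 there were 21 members, where 32.1% of all tested probe sets passed. Within regimes, where populations with the same mating history are compared and 6 degrees of freedom remain, 7 members were called, where 17.7% of all tested were. The unadjusted count was 17 members, and 29.4% of all tested. Without Prom4 the count called within regimes was 4.

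mRpS35, a small subunit protein specific to mitochondria, differed most. Its population means were 9.64, 9.67, 10.08 and 9.84 in Mono1 to Mono4 and 9.90, 9.92, 9.86 and 10.20 in Prom1 to Prom4. Mono1 and Mono2 were lowest, Prom4 and Mono3 highest, and the regimes overlapped. The 8 arrays of Mono1 and Mono2 reached 9.77 at most, while the 4 arrays of Prom4 began at 10.12. The F value was 22.4 (limma adjusted p = 4.45e-08) over all populations and 20.5 (adjusted p = 2.72e-07) within regimes, and each batch showed the same order at its ends: Mono1 had 9.67 in batch 2 and 9.62 in batch 1, Prom4 had 10.27 in batch 2 and 10.14 in batch 1. mRpS35 was called in batch 2 alone (adjusted p = 0.0012) and in batch 1 alone (adjusted p = 0.019).

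mRpS5, the counterpart of a bacterial protein near the messenger RNA entry of the small subunit, came next. Its means were 11.36, 11.23, 11.04 and 11.48 in Mono1 to Mono4 and 11.41, 11.36, 11.39 and 11.43 in Prom1 to Prom4 (F = 8.85, limma adjusted p = 0.000161). The low value of Mono3 and the range among monogamous populations stood out against the narrow band of the promiscuous ones, whose SD was 0.028 (n = 4), against 0.19 (n = 4) in monogamous populations. Mono3 was lowest in both batches, with 11.14 in batch 2 and 10.95 in batch 1, but in batch 2 alone mRpS5 was not called (adjusted p = 0.165).

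mRpS21, of the small subunit, was highest in Mono3 and lowest in Mono4. Its means were 10.57, 10.58, 10.72 and 10.46 in the monogamous populations and 10.55, 10.62, 10.64 and 10.49 in the promiscuous ones (F = 5.67, limma adjusted p = 0.00341). mRpL45, whose human counterpart lines the exit of the tunnel for the growing protein, had means of 9.18, 9.16, 9.28 and 9.12 in Mono1 to Mono4 and 9.19, 9.35, 9.30 and 9.10 in Prom1 to Prom4 (F = 5.51, limma adjusted p = 0.00408). Both genes had their lowest mean of each regime in the population numbered 4. mRpS21 was not called in batch 2 alone (adjusted p = 0.291), and mRpL45 was called in neither batch alone (adjusted p = 0.106 in batch 2 and 0.472 in batch 1).

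mRpL55, specific to the mitochondrial large subunit, had means of 9.89, 9.74, 9.87 and 9.88 in monogamous and 10.07, 9.92, 9.90 and 9.84 in promiscuous populations (F = 5.10, limma adjusted p = 0.00631). Without Prom1, its highest population, it was not called (adjusted p = 0.216), nor without Mono2, its lowest (adjusted p = 0.083). The other members called between populations were mRpL12, mRpL32, mRpL30, mRpL13, mRpL20 and mRpL14 of the large subunit and mRpS17 and mRpS6 of the small subunit. mRpL12, the counterpart of the bacterial stalk protein that recruits translation factors, had an F of 4.85 (limma adjusted p = 0.00851), and mRpL32 an F of 4.40 (adjusted p = 0.014). Neither was called in batch 1 alone (adjusted p = 0.398 and 0.664). mRpL32 was also not called without Mono4 (adjusted p = 0.0517) or Prom3 (adjusted p = 0.093). mRpL30, mRpL13 and mRpS17 were called in neither batch alone, nor when the 16 cross means replaced the 32 arrays. Of the 13, mRpS35, mRpS5, mRpS21, mRpL45, mRpL55, mRpL30 and mRpL13 were also called within regimes.

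**Figure D1:**
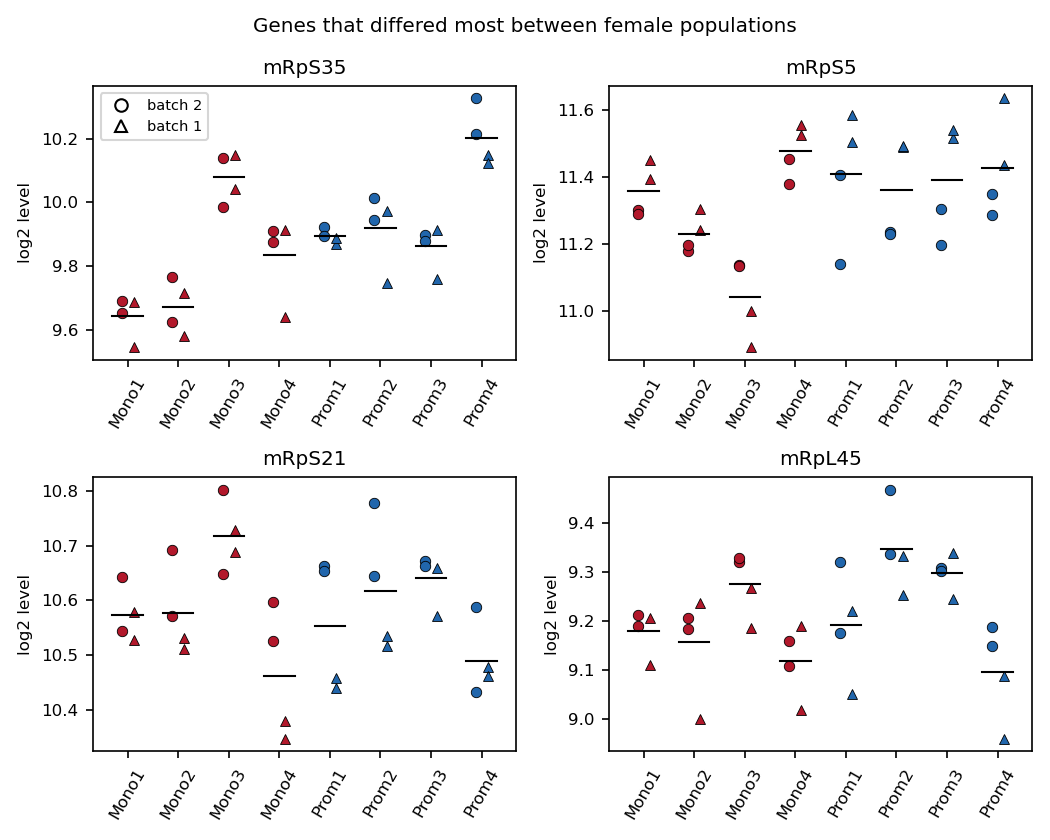
Log2 level of 4 genes on every array (vertical axes, which do not start at 0) by female population (horizontal axes), with monogamous populations in red on the left, promiscuous ones in blue on the right, circles for batch 2, triangles for batch 1 and bars for the mean of the 4 arrays. mRpS35 is lowest in Mono1 and Mono2 (9.64 and 9.67) and highest in Prom4 (10.20), and mRpS5 is lowest in Mono3 (11.04).

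The female regime comparison asked whether females of monogamous descent differed from females of promiscuous descent, whatever their mate. Most genes of the family lay slightly lower in monogamous females, but no single one was called. The mean of all 71 probe sets was 9.93, 9.91, 9.97 and 9.90 in Mono1 to Mono4, and 9.97, 9.98, 9.98 and 9.94 in Prom1 to Prom4, which gives 9.93 ± 0.028 in monogamous and 9.97 ± 0.020 in promiscuous females (SD, n = 4 each). Mono3 was inside the promiscuous range, so the regimes overlapped. Of the 71 probe sets, 60 were lower and 11 higher in monogamous females, with a median difference of -0.032, while the median over all tested probe sets was -0.0041, with 9927 lower and 8842 higher. In whole-fly RNA, fewer cells of a type and less RNA per cell cannot be told apart.

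None of the 71 was called by limma for the female regime, the smallest adjusted p being 0.554, and 0% of all tested probe sets were called. At an unadjusted p under 0.05 there were 3 members (4.23%), with 7.11% of all tested probe sets. Leaving out 1 population gave between 1 member (without Prom1, Prom2 or Prom3) and 7 (without Mono3). The lower position was shared by both subunits: 40 of 45 large subunit probe sets and 20 of 26 small subunit ones were lower, with medians of -0.036 and -0.030. It was also shared by the members whose number follows the bacterial series (up to L36 and S21 by name) and those with higher numbers, at -0.032 over 41 probe sets and -0.034 over 30. This is a split by name, and a few proteins with higher numbers have bacterial relatives too.

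mRpS18C had the smallest p for the female regime. It is 1 of 3 relatives of bacterial S18 in the mitochondrial ribosome. Its means were 9.66, 9.66, 9.66 and 9.58 in Mono1 to Mono4 and 9.82, 9.76, 9.75 and 9.76 in Prom1 to Prom4, and the regimes did not overlap. The difference was -0.13 (SE 0.035, unadjusted p = 0.00422, limma adjusted p = 0.554). In its 2 relatives the regimes overlapped over both batches, although mRpS18B did not overlap in batch 2 alone. mRpS18A averaged 10.61 ± 0.023 in monogamous and 10.62 ± 0.018 in promiscuous females, and mRpS18B 10.06 ± 0.057 in monogamous and 10.05 ± 0.037 in promiscuous females (SD, n = 4 each).

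Next by p-value were mRpL32, mRpL12, mRpL49 and mRpS30, all with lower values in monogamous females. mRpL32 averaged 9.57 ± 0.049 in monogamous and 9.68 ± 0.066 in promiscuous females, a difference of -0.11 (SE 0.043, limma adjusted p = 0.668). mRpL12 averaged 11.04 ± 0.057 in monogamous and 11.13 ± 0.056 in promiscuous females, a difference of -0.093 (SE 0.039, limma adjusted p = 0.676). The regimes overlapped in both. mRpL49 and mRpS30 differed by -0.066 and -0.060 (limma adjusted p = 0.706 for each), with no overlap between the regimes. Groups that did not overlap, all with monogamous females lower, were found for 7 of the 71 probe sets (9.86%), namely those of mRpS18C, mRpS30, mRpS29, mRpL49, mRpL15, mRpL28 and 1 of the 2 for mRpS11, while 2.48% of all tested probe sets showed that pattern. The opposite pattern was seen in 0 of the 71.

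The largest difference in size, -0.16, belonged to mRpS35, whose regimes overlapped as described above.

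The lower position in monogamous females was seen in the batch 2 arrays. In batch 2 the mean of the 71 probe sets was 9.93, 9.94, 9.96 and 9.90 in Mono1 to Mono4 and 9.99, 10.02, 10.02 and 10.003 in Prom1 to Prom4, with no overlap. In batch 1 it was 9.93, 9.88, 9.98 and 9.91 in Mono1 to Mono4 and 9.95, 9.93, 9.94 and 9.87 in Prom1 to Prom4, and the regimes overlapped. In batch 2 alone 69 of 71 probe sets were lower in monogamous females (median -0.075), and in batch 1 alone 33 of 71 (median 0.0066). The medians over all tested probe sets were -0.012 in batch 2 and 0.0037 in batch 1.

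Counts of separate members followed the same division. In batch 2, 24 of 71 probe sets (33.8%) had all 4 monogamous means below all 4 promiscuous means, against 3.79% of all tested. In batch 1 the count was 0 of 71, against 1.75% of all tested. At an unadjusted p under 0.05 there were 20 members in batch 2, where 9.77% of all tested probe sets passed, and 0 in batch 1, where 6.16% did. None was called by limma in either batch, where 0% of all tested probe sets were called in batch 2 and 0.00533% in batch 1.

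mRpS18C again had the smallest p in batch 2. It measured 9.67, 9.68, 9.62 and 9.54 in Mono1 to Mono4 and 9.88, 9.84, 9.83 and 9.87 in Prom1 to Prom4, a difference of -0.23 (SE 0.042, unadjusted p = 0.000414, limma adjusted p = 0.426). In batch 1 it measured 9.65, 9.65, 9.69 and 9.61 in Mono1 to Mono4 and 9.76, 9.67, 9.67 and 9.65 in Prom1 to Prom4, a difference of -0.039 (SE 0.043, adjusted p = 0.933). The regimes were clearly apart in batch 2 and overlapped in batch 1. mRpL50, a mitochondria-specific protein of the large subunit that was singled out after its values were seen, showed the same contrast. It measured 9.43, 9.38, 9.46 and 9.45 in Mono1 to Mono4 and 9.55, 9.55, 9.55 and 9.56 in Prom1 to Prom4 in batch 2, a difference of -0.12 (SE 0.036, adjusted p = 0.426), and differed by -0.021 (SE 0.054, adjusted p = 0.977) in batch 1.

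The change of the regime difference between batches was itself tested, after the data had been seen, on the 8 within-population batch differences. For 68 of 71 probe sets the regime difference was more negative in batch 2 than in batch 1, with a median change of -0.076, against a median of -0.010 over all tested probe sets. None was called by limma (smallest adjusted p = 0.62), and 0% of all tested probe sets were called. There were 12 members (16.9%) at an unadjusted p under 0.05, with 7.98% of all tested. That count depended on the populations included: it was 4 without Mono4, 7 without Mono3 or Prom3 and 20 without Mono2. The 3 exceptions in direction were mRpS5, mRpS30 and mRpL52. mRpS5 had a batch difference of -0.037 in monogamous and -0.26 in promiscuous females, and mRpS18C one of -0.021 in monogamous and 0.17 in promiscuous females (limma adjusted p = 0.62 for each change). What sets the batches apart was not tested.

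**Figure D2:**
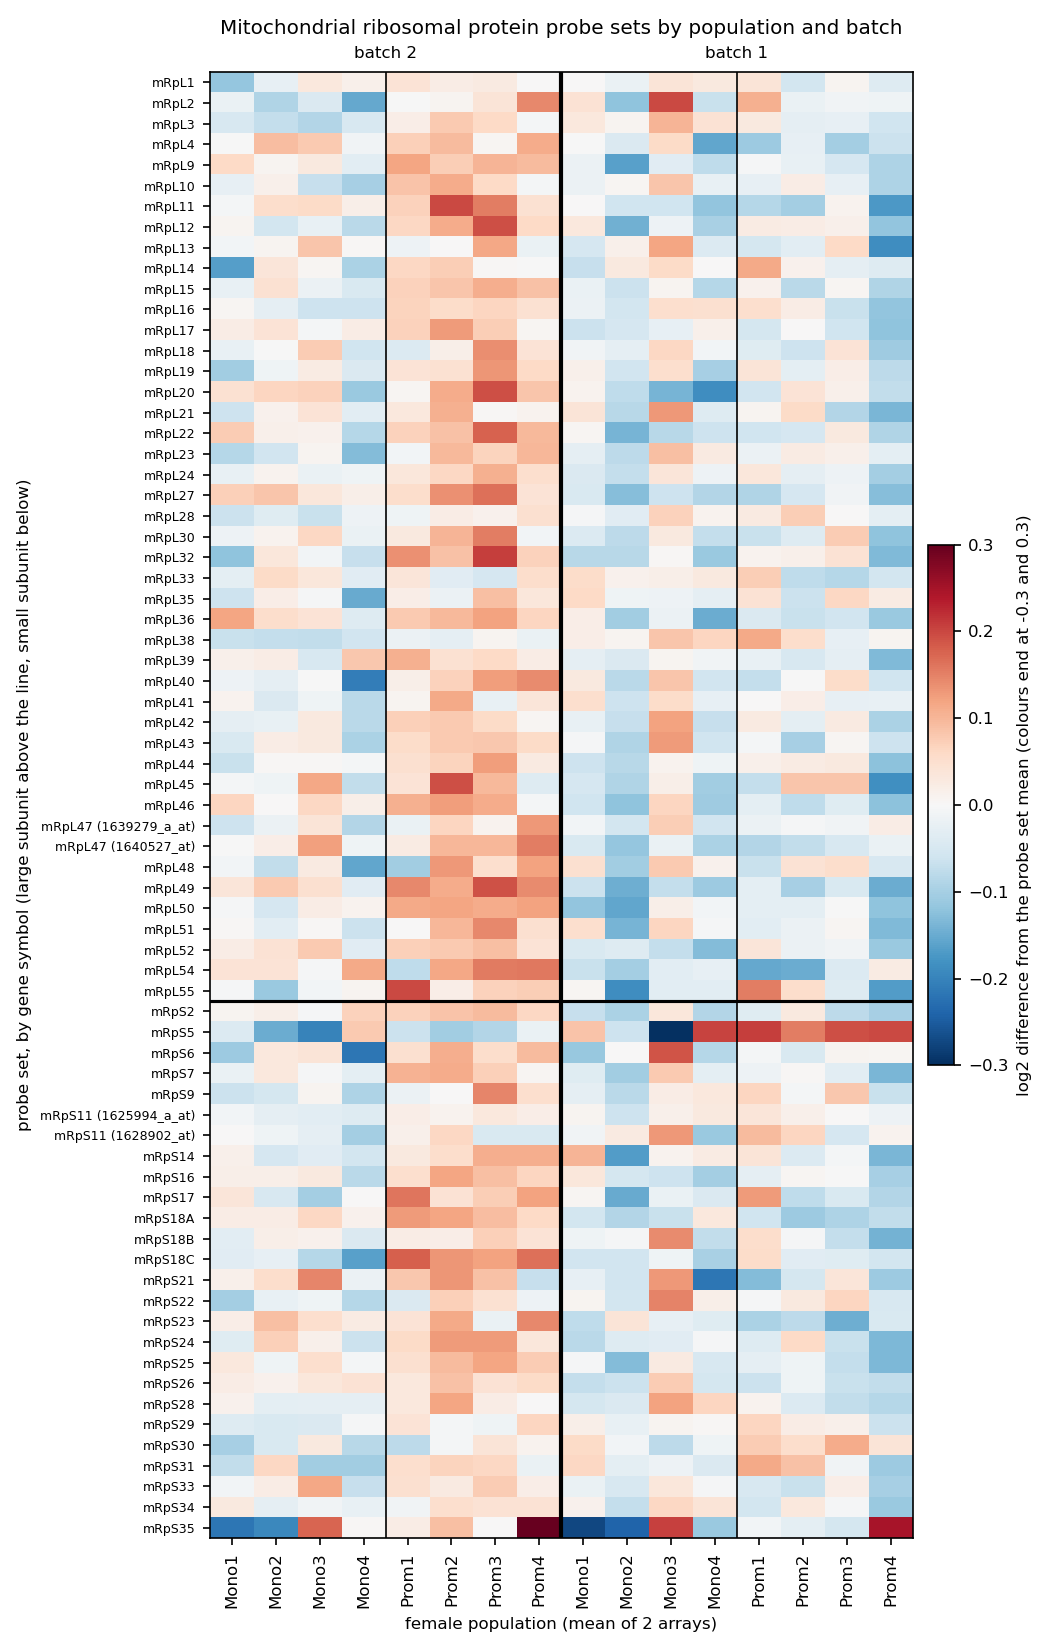
Deviation of each of the 71 probe sets (rows, large subunit above the horizontal line and small subunit below) from its own mean over the 16 columns, in log2 units, for the 8 female populations in batch 2 (left block) and batch 1 (right block), monogamous populations left of promiscuous ones, each cell the mean of 2 arrays; colours end at -0.3 and 0.3. Red fills the promiscuous columns of batch 2, in which 69 of 71 probe sets were lower in monogamous females, while mRpS35 and mRpS5 follow single populations.

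**Figure D3:**
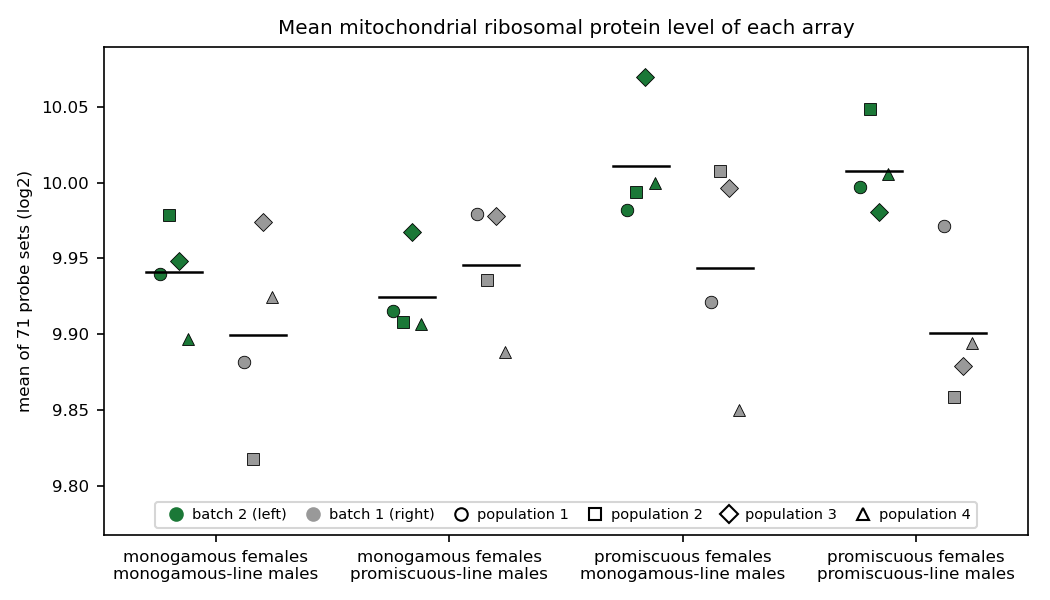
Mean log2 level of the 71 probe sets on each of the 32 arrays (vertical axis, not starting at 0) in the 4 groups of crosses (horizontal axis), batch 2 in green on the left and batch 1 in grey on the right of each group, with a symbol for the population number and a bar for the mean of 4 arrays. The 8 arrays of promiscuous females in batch 2 lie between 9.98 and 10.07 and their 8 arrays in batch 1 between 9.85 and 10.01, with overlap.

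The male regime comparison asked whether a female's level depended on the evolutionary history of her mate. For each female population a response was computed as its level with monogamous-line males minus its level with promiscuous-line males. Same-numbered female populations were mated to the same 2 male populations, so the 8 responses rest on 4 pairs of male populations. Averaged over both female regimes, 41 of 71 probe sets were higher and 30 lower with monogamous-line males, with a median of 0.0077 (-0.0059 without Prom3), against 0.0016 over all tested probe sets. None was called by limma (smallest adjusted p = 0.37), as was the case for 0% of all tested probe sets, and 1 member passed an unadjusted p under 0.05, where 11% of all tested did.

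That member was mRpS5. Its responses were -0.021, -0.040, -0.053 and -0.053 in Mono1 to Mono4 and -0.17, 0.0011, -0.065 and -0.069 in Prom1 to Prom4. Females mated to monogamous-line males had the lower value in 7 of 8 populations, and the mean response was -0.059 (SE 0.020, unadjusted p = 0.00989, limma adjusted p = 0.37). mRpL11, mRpL4, mRpS35 and mRpL28 followed, with mean responses of -0.040, 0.046, 0.045 and 0.031 (limma adjusted p up to 0.62).

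The 2 female regimes pointed in different directions as groups. In monogamous females 47 of 71 probe sets were lower and 24 higher with monogamous-line males, with a median of -0.0088 that became 0.0017 when the arrays were quantile-normalized again. In promiscuous females 12 were lower and 59 higher, with a median of 0.029. The mean over the 71 probe sets responded by -0.037, -0.024, -0.011 and 0.013 in Mono1 to Mono4 and by -0.033, 0.047, 0.10 and -0.025 in Prom1 to Prom4. Over both batches Prom2 and Prom3 therefore carried the positive side, with 63 and 67 of 71 probe sets higher, whereas in Prom1 and Prom4 only 17 and 18 were higher. The mean response of Prom2 was -0.054 in batch 2 and 0.15 in batch 1. That of Prom3 was positive in both, at 0.089 in batch 2 and 0.12 in batch 1. Mono1, Mono2 and Mono4 changed sign between batches as well. Without Prom3 the median in promiscuous females was -0.0044.

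No member was called by limma within monogamous females, where 0% of all tested probe sets were called, or within promiscuous females, where 0.00533% were. In monogamous females 1 member passed an unadjusted p under 0.05, with 8.46% of all tested. It was mRpL18, of the large subunit, with responses of -0.027, -0.086, -0.063 and -0.087 and a mean of -0.066 (SE 0.029, limma adjusted p = 0.57). In promiscuous females 2 members passed, with 10.2% of all tested. These were mRpS5, at -0.077 (SE 0.028, limma adjusted p = 0.408), and mRpL33, at 0.066 (SE 0.030, limma adjusted p = 0.487).

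The interaction, which tests whether the response differed between the female regimes, called none of the 71 probe sets (smallest limma adjusted p = 0.587), where 0.00533% of all tested were called. The response to monogamous-line males was lower in monogamous than in promiscuous females for 60 of 71 probe sets, with a median of -0.037 (-0.011 without Prom3), against -0.00032 over all tested. At an unadjusted p under 0.05 there were 2 members, with 7.89% of all tested, and leaving out 1 population gave between 0 (without Prom3) and 10 (without Prom1). mRpS33, specific to the mitochondrial small subunit, had responses of -0.15, -0.053, -0.057 and -0.0011 in Mono1 to Mono4 and 0.010, 0.085, 0.15 and 0.014 in Prom1 to Prom4. Every monogamous response lay below every promiscuous one, and the interaction was -0.13 (SE 0.048, unadjusted p = 0.0199, limma adjusted p = 0.587). mRpL33 had responses of -0.065, -0.046, -0.0087 and -0.026 in Mono1 to Mono4 and 0.051, -0.021, 0.16 and 0.073 in Prom1 to Prom4, with an interaction of -0.10 (SE 0.043, limma adjusted p = 0.608).

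This pattern, too, differed between the batches and was seen in batch 1, but the change of the interaction between batches was not tested. In batch 1 alone the interaction was negative for 69 of 71 probe sets (median -0.087), and in batch 2 alone for 28 of 71 (median 0.019). The medians over all tested probe sets were -0.0075 in batch 1 and 0.0048 in batch 2. At an unadjusted p under 0.05 there were 7 members in batch 1, where 12% of all tested passed, and 0 in batch 2, where 3.36% did. Within monogamous females the response was negative for 20 of 71 in batch 2 and 63 of 71 in batch 1, and within promiscuous females for 34 of 71 in batch 2 and 8 of 71 in batch 1. No member was called by limma in any of these single-batch comparisons. Within monogamous females 2 members had an unadjusted p under 0.05 in batch 1 (7.87% of all tested) and 1 in batch 2 (5.88%). Within promiscuous females there were 1 in batch 1 (13.3%) and 0 in batch 2 (3.05%).

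**Figure D4:**
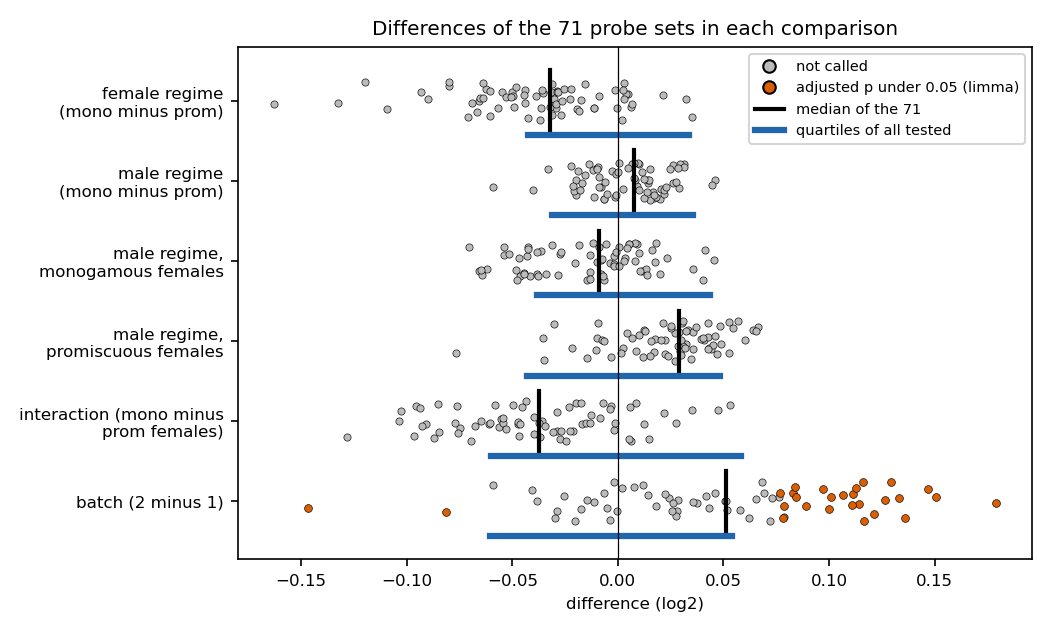
Log2 differences (horizontal axis) of the 71 probe sets in 6 comparisons (rows): each point is a probe set, orange where limma's adjusted p was under 0.05, the black bar marks the median of the 71 and the blue bar the quartiles of all tested probe sets. Called points occur in the batch comparison, 25 higher and 2 lower in batch 2, and in none of the 5 regime comparisons.

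Between the batches the family did move. Over the 16 crosses, 27 of 71 probe sets were called by limma (38.0%), compared with 20.2% of all tested probe sets. In batch 2, 25 members were higher, where 10.7% of all tested were, and 2 lower, where 9.49% were. At an unadjusted p under 0.05 there were 36 members, and 33.2% of all tested. The median difference was 0.051 for the family and -0.0053 for all tested, and 18 of the 27 were of the large subunit and 9 of the small.

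mRpL49, specific to the mitochondrial large subunit, rose most. It averaged 10.48 ± 0.079 in batch 2 and 10.30 ± 0.070 in batch 1 (SD, n = 16 crosses each), and the difference within a cross had a lowest value of 0.0059, a median of 0.19 and a highest value of 0.35. It was higher in batch 2 in 16 of 16 crosses, by 0.18 on average (SE 0.028, limma adjusted p = 0.000105). The same held in 16 of 16 crosses for 1 of the 2 probe sets of mRpL47, by 0.13 (adjusted p = 0.000106), for mRpS23, by 0.12 (adjusted p = 0.000788), and for mRpL9, by 0.11 (adjusted p = 0.00114). The other probe set of mRpL47 did not show this rise, with mean differences of -0.021 in crosses of monogamous and 0.049 in crosses of promiscuous females. mRpS18A, mRpL27, mRpL46, mRpL11, mRpL54 and mRpL36 completed the 10 smallest p-values, with rises between 0.12 and 0.15 in 14 or 15 of 16 crosses (limma adjusted p between 0.000599 and 0.0021). The 2 members that fell were mRpS5, with 11.26 ± 0.099 in batch 2 and 11.41 ± 0.21 in batch 1 (difference -0.15, SE 0.037, limma adjusted p = 0.00728), and mRpL38, with 9.45 ± 0.049 in batch 2 and 9.53 ± 0.056 in batch 1 (difference -0.081, SE 0.024, limma adjusted p = 0.0179). mRpS5 fell in 14 of 16 crosses and was higher in both crosses of Mono3.

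On average the batch difference of the family was larger in crosses of promiscuous females. The mean of the 71 probe sets differed by 0.010 ± 0.071 in the 8 crosses of monogamous females and by 0.087 ± 0.066 in the 8 crosses of promiscuous females (SD). It ranged from -0.064 to 0.19 over all crosses, and the 2 sets of crosses overlapped. In crosses of monogamous females alone 1 member was called by limma, where 7.01% of all tested probe sets were, and 15 had an unadjusted p under 0.05, where 25% of all tested did. In crosses of promiscuous females alone 24 members were called, where 7.93% of all tested were, and 46 had an unadjusted p under 0.05, where 23.1% of all tested did. The median over the 71 probe sets was 0.011 in crosses of monogamous females and 0.092 in crosses of promiscuous females.

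**Figure D5:**
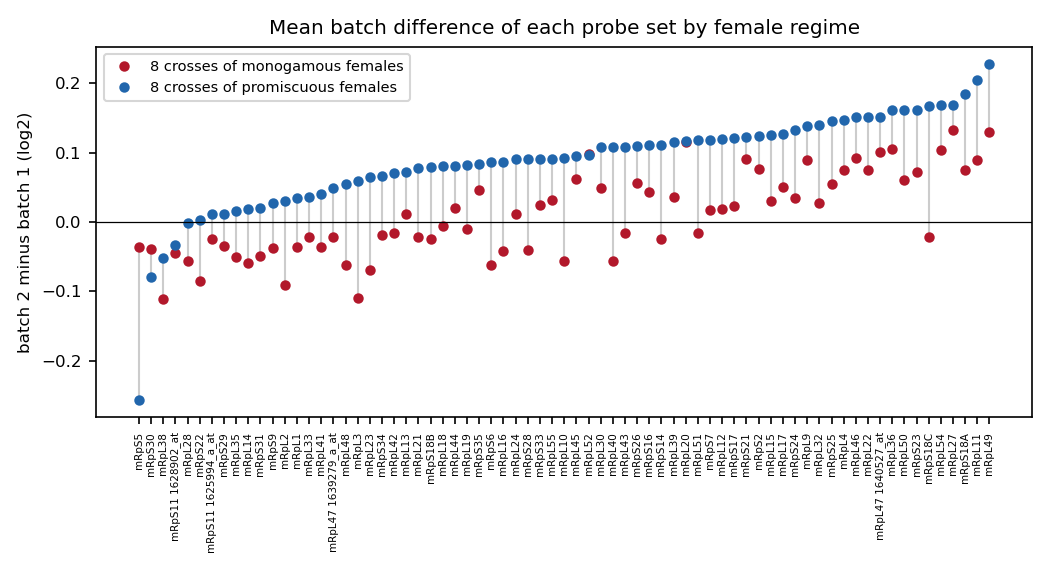
Batch 2 minus batch 1 difference of each of the 71 probe sets in log2 units (vertical axis), averaged over the 8 crosses of monogamous females (red) and the 8 crosses of promiscuous females (blue), with probe sets ordered by the blue value (horizontal axis). The blue point is higher for 68 of 71 probe sets, and mRpS5 is the lowest blue point at -0.26.

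Members of the family varied together from array to array. After the batch means were removed, the mean pairwise Pearson correlation over the 32 arrays was 0.44 among the 71 probe sets, 0.48 within the large and 0.37 within the small subunit. It was 0.0050 among all single-gene probe sets, 0.35 among 84 probe sets for nuclear subunits of oxidative phosphorylation and 0.14 among 46 for cytoplasmic ribosomal proteins. The arrays share populations and crosses, so these are descriptions of the set. Correlated with the mean of the other members, a member had a median r of 0.71, the highest being mRpL24 at 0.86 and mRpL23 at 0.85. mRpS5 was the lowest at -0.23, followed by mRpS23 at -0.064. mRpS35, mRpS21 and mRpL45, which differed most between populations, were also weakly tied to the rest at 0.34, 0.30 and 0.33.

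The 2 genes with a pair of probe sets showed how far separate measurements of a gene agree. After the batch means were removed, the probe sets of mRpL47 correlated at 0.70 and those of mRpS11 at 0.52 over the 32 arrays. These values therefore do not cover the batch difference, in which the probe sets of mRpL47 differed. For mRpS11, the first probe set averaged 10.09 ± 0.020 in monogamous and 10.12 ± 0.011 in promiscuous females and the regimes did not overlap, whereas for the other the averages were 9.93 ± 0.067 in monogamous and 9.95 ± 0.055 in promiscuous females, with overlap (SD, n = 4 each).

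The 10 other genes whose level followed the family mean most closely over the 32 arrays, batch means removed, were led by Tim9a and Tom20, both parts of the machinery that imports proteins into mitochondria, with r of 0.91 and 0.90. tko, which encodes another protein of the mitochondrial small subunit under an older name, came next at 0.89. The remaining 7 were CG3760, CG13630, RpLP0-like, sel, Pfdn2 (a subunit of the prefoldin chaperone), betaCOP (a subunit of the COPI vesicle coat) and CG13220, with r between 0.86 and 0.88. All 10 had lower values in monogamous females, with differences between -0.078 and -0.033, as did the family they were picked to resemble.

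Other mitochondrial gene groups did not share one direction for the female regime. tko and bonsai, 2 further genes of the mitochondrial small subunit, differed by -0.051 (SE 0.033, limma adjusted p = 0.803) and -0.048 (SE 0.037, adjusted p = 0.85). Lower values in monogamous females were found for 11 of 15 probe sets of mitochondrial translation factors, 5 of 15 of mitochondrial tRNA synthetases, 8 of 15 of mitochondrial DNA and RNA maintenance genes, 15 of 22 of import genes, 26 of 84 of nuclear oxidative phosphorylation subunits and 25 of 46 of cytoplasmic ribosomal proteins. None of these probe sets was called by limma in any of the 5 regime comparisons. At an unadjusted p under 0.05 for the female regime there were 0, 0, 1, 2, 7 and 1 of them in that order, where 7.11% of all tested passed. In batch 2 alone, lower values were found for 16 of 22 import, 33 of 46 cytoplasmic ribosomal and 31 of 40 proteasome probe sets. In batch 1 alone these counts were 9, 18 and 7. For translation factors they were 10 of 15 in batch 2 and 6 of 15 in batch 1. For DNA and RNA maintenance genes they were 9 of 15 in batch 2 and 7 of 15 in batch 1. Over the whole array, 8176 of 18769 probe sets were higher in monogamous females in batch 2 and 9740 in batch 1. A lean in batch 2 was thus not limited to the mitochondrial ribosome. For oxidative phosphorylation the counts were 41 of 84 in batch 2 and 28 of 84 in batch 1, and for tRNA synthetases 6 of 15 in each.

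Among the named genes of these groups, ClpX, a mitochondrial protein-unfolding ATPase, was 0.11 higher in monogamous females (SE 0.035, limma adjusted p = 0.592). ttm50 and Hsp60A, which act in the import and folding of mitochondrial proteins, had differences of -0.12 (SE 0.045, adjusted p = 0.64) and -0.065 (SE 0.027, adjusted p = 0.67). For the interaction, TFAM, which packages mitochondrial DNA, had -0.13 (SE 0.050, limma adjusted p = 0.602), and mEFTu2, a mitochondrial elongation factor, -0.12 (SE 0.045, adjusted p = 0.587). Oxidative phosphorylation subunits leaned the same way as the ribosomal proteins there, with 73 of 84 probe sets negative, though not for the female regime.

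Between batches the neighbouring groups gave a mixed picture. In batch 2, 14 of 15 tRNA synthetase probe sets were higher and 5 were called by limma, where 20.2% of all tested were. Among the 5 was that of ValRS-m (0.18, SE 0.036, limma adjusted p = 0.00167). Tom40, the pore of the outer membrane import complex, fell by 0.13 (SE 0.021, limma adjusted p = 0.000216). Of the 84 oxidative phosphorylation probe sets 41 were higher and 43 lower, with 11 called, where 20.2% of all tested were.

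Markers of tissues were compared because whole flies were measured. Ovary and germline markers were higher in monogamous females for 23 of 33 probe sets, and their mean level ranged from 9.90 to 9.96 in monogamous and from 9.88 to 9.90 in promiscuous populations. In batch 2, where the ribosomal proteins were lower in monogamous females, 23 of 33 ovary probe sets were higher. The ovary list there ranged from 9.90 to 9.998 in monogamous and from 9.84 to 9.92 in promiscuous populations. In batch 1, 19 of 33 were higher, with ranges of 9.89 to 9.97 in monogamous and 9.87 to 9.94 in promiscuous populations. Eggshell markers went the other way, with 12 of 17 probe sets lower in monogamous females in batch 2 and 10 of 17 in batch 1. Gut enzyme markers were lower for 16 of 23 in batch 2 and 15 of 23 in batch 1. Fat body and yolk markers were lower for 6 of 11 in each batch. Neuronal markers were higher for 18 of 29 in batch 2 and 14 of 29 in batch 1. Muscle markers were higher in monogamous females for 21 of 31 probe sets in batch 2 and for 9 of 31 in batch 1, with list means from 9.64 to 9.83 in monogamous and 9.60 to 9.81 in promiscuous populations in batch 2. Male-specific markers lay at a mean of 3.56 to 3.61 in monogamous and 3.58 to 3.60 in promiscuous populations, below the limit of the dimmest 40%. The part of tissue proportions in the differences of the ribosomal proteins was not tested.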

How the data were processed

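Whole-fly RNA of mated females was measured on 32 arrays. The authors deposited log2 values on which RMA (affy) had been run; the submitters' processing notes name both without a version. RMA makes the array distributions alike, so a shift of most genes cannot be seen. Control probe sets (183 of 18952) were left out. Genes were named from the platform annotation, and 402 probe sets with several genes and 4720 with none were not named. For arrays, the number of populations limits the precision.

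Fits used limma 3.58.1 in R 4.3.3 (lmFit, eBayes with an intensity trend, two-sided). The female regime was fitted to 8 population means, the male regime to 8 responses with a female regime term, the batch to 16 within-cross differences, and population F-tests to 32 arrays with male regime and batch terms. In simulated data the fits recovered known changes on average. Those changes were larger than any regime difference of the family, so changes of the size seen here were not simulated. Population numbers were given by the labels, and a number marks the male populations shared by 2 female populations. P-values of the regime and batch fits measure the spread between populations or crosses. Those of the population F-tests measure the spread between arrays of a population. The members and lists were chosen with earlier results of these data known.

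Genes named were members called for a regime, the 5 smallest p-values per comparison (10 for batch and female population), the 3 most and 3 least variable, genes with several probe sets, the S18 relatives, the 2 smallest p-values per mitochondrial list (a selection is given), and the 10 most similar genes. Alternatives changed the variance model, the scaling, the filter on dim probe sets, the batch, the unit of replication and the populations included.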

Additional observations from a re-analysis of the deposited data

Results flagged for a closer look

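Among 76 sets of values searched (the family mean, its male responses and batch differences, and the population means of the named members in each regime), 8 had a value far from the others. Such gaps are found in about 1 of 20 sets by chance. Each concerned the 4 population means of a probe set within a regime. In monogamous females, Mono4 was apart for mRpL11 at 9.08, with the others at 9.13, and for mRpS18C at 9.58, with the others at 9.66. Mono2 was apart for mRpL55 at 9.74, with the others between 9.87 and 9.89. In promiscuous females, Prom4 was apart for mRpL3 at 9.17 (others 9.22 to 9.23), for mRpL46 at 9.59 (others 9.68 to 9.69) and for mRpS35 at 10.20 (others 9.86 to 9.92). Prom3 was apart for mRpL18 at 10.091 (others 9.96 to 9.98), and Prom2 for mRpL28 at 10.72 (others 10.68). The family mean had no such population, array or cross.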

How the results depend on the processing

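In 137 of 144 recomputed counts the number of members called stayed within 1.5 times the reported one. Where the reported count was 0, this says only that it stayed 0. The 7 counts that moved were all for batch or for differences between female populations. Of the medians, 88 of 92 moved by less than 1 SD between populations, responses or crosses. The 5 regime comparisons and the test of the female regime between batches called 0 members under every alternative run with limma. The exceptions for medians were the single batches: the female regime median was -0.075 in batch 2 and 0.0066 in batch 1, and the male regime median in monogamous females was 0.018 in batch 2 and -0.039 in batch 1. The batch count fell to 1 in the crosses of monogamous females, where 7.01% of all tested were called. Between populations the count was 7 without an intensity trend, 4 in batch 2 and 3 in batch 1, and within regimes it was 1 in batch 2 and 3 in batch 1. A single batch has fewer arrays. Where no share of all tested probe sets is given for an alternative, its count cannot set the family apart from the array. Leaving out a population in turn gave 4 to 10 called within regimes, with the lowest count without Prom4. Of 815 recomputed values of named members, 48 lost their call, 9 of them for batch in the crosses of monogamous females, and 2 changed sign in batch 2, namely mRpL20 in monogamous females (0.020) and mRpS18C for the interaction (0.0093). No cause was tested.

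Deviations of same-numbered populations from their regime mean correlated at 0.13, 0.071, 0.19 and 0.024 for levels and at 0.17, 0.028, -0.038 and 0.013 for male responses. These correlations were weak. For levels, numbers 1, 2 and 3 nevertheless had their best match in the same number, and number 4 in number 2. For male responses only number 1 did. With the population number as a block, limma called 0 members in the 5 regime comparisons, and 3 for the female regime, 1 for the male regime, 0 and 2 for the male regime in monogamous and promiscuous females and 2 for the interaction had an unadjusted p under 0.05. The block changed no call.

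The number of populations limits the precision: the female regime difference with the smallest p, -0.13 for mRpS18C, did not pass the adjustment. All members were above the dim range of the array.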
